A study of Mus musculus with 43 samples.

Results

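Fragments of the tRNAs for histidine, aspartate, asparagine and tyrosine were followed through the mouse epididymis, its luminal fluid and cauda sperm. The members were every row of the 3 deposited count tables that carried the name of tRNA-His-GTG, tRNA-Asp-GTC, tRNA-Asn-GTT or tRNA-Tyr-GTA and ended in 1 of the 3 fragment types, tRF_5′, tRF_3′ or tRF_other. The rule used names alone and no measured value. It found 51 of the 651 tRF rows among 4890 RNAs of the tissue table, 48 of 645 among 3178 in fluid and 51 of 654 among 4323 in sperm. In tissue and sperm 9 rows were of His, 12 of Asp, 15 of Asn and 15 of Tyr, and in fluid 12 were of Asn. Together they cover 17 isodecoders, that is, tRNAs that share an anticodon and differ elsewhere in their sequence.

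The anticodon of all 4 tRNAs begins with G at the wobble position, which in mammals can be exchanged for the modified base queuosine by tRNA-guanine transglycosylase, an enzyme made of QTRT1 and QTRT2. Mammals do not make the base and take it up from food and gut bacteria, and on the Tyr and Asp tRNAs a further sugar is added to it. Queuosine is known to shield these tRNAs from cleavage in the anticodon loop by angiogenin, a secreted ribonuclease of the RNase A family, and it favours methylation of the Asp tRNA by DNMT2. Queuosine itself was not measured here, and the counts do not tell modified from unmodified tRNA.

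The study compared WT FVB mice with mice that carried a CRISPR-Cas9 deletion of the Rnase9-12 gene cluster (KO), at 8 to 12 weeks of age. It holds 43 libraries, 17 made from epididymis tissue, 18 from luminal fluid and 8 from cauda sperm. Caput tissue, cauda tissue and the caput, corpus and cauda fluids each had 3 WT and 3 KO libraries, corpus tissue had 3 WT and 2 KO, and sperm had 4 WT and 4 KO. Each fluid and sperm library pooled RNA of 3 mice, the pooling of tissue is not stated, fluid was freed of sperm and vesicles by centrifugation, and all RNA was treated with polynucleotide kinase to remove 3′ phosphates. Tissue was sequenced by ARM-seq, which takes off some base methylations that stop reverse transcription, and fluid and sperm by OTTR-seq, which uses an engineered reverse transcriptase, so tissue and the other libraries differ in method as well as in source. The transcripts of Rnase9 to Rnase12 were not among the counted RNAs, so the genotype could not be checked in these counts. In 7 libraries, all 6 of caput fluid and 1 of WT caput tissue (replicate 3), the section label reads cauda while the title reads caput, and they were grouped by title.

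A tissue library held 30142156 to 249732714 counts, of which 25367 to 951681 fell on the members. Fluid libraries were smaller, with 1948718 to 12320922 counts, and gave the members 180653 to 1537339. Sperm libraries held 1134840 to 62128314 counts and 2386 to 360277 on the members. The lowest, 2386, was of WT sperm replicate 4, which was also the lowest WT library in all 12 sums described below. Of the 5 miR-200 family markers of epithelium all were counted in tissue, at a summed 4.25 to 33.5 CPM (counts-per-million of the library total), and germ line miRNAs (2 of 5 in the tissue table) stayed at 0.421 or less there. In sperm the germ line miRNAs (4 of 5 in the table) were at 15.9 to 57.4 CPM and the epithelial ones at 5.52 to 23.3.

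The fragments are named by where a read lies relative to the 5′ and 3′ ends of the mature tRNA. Sequences that carry an anticodon of the set are shown to give its place in the tRNA. They are RefSeq genes on GRCm38, written 5′ to 3′ on the strand of the gene, with the 3 anticodon letters in capitals. The first is a nuclear Asn gene at chr10:80249159-80249232 on the plus strand and the second is the first 62 of the 72 bases of a nuclear His gene at chr3:96452495-96452556 on the plus strand. RefSeq names could not be tied to isodecoder numbers, so neither is the sequence of a particular row.
n-TNgtt7: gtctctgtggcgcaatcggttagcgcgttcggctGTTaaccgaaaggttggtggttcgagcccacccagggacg
n-THgtg7: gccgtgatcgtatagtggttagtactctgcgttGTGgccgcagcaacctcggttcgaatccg

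In the Asn gene the anticodon starts at base 35 of 74 and in the His gene at base 34 of 72, so a cut in the anticodon loop leaves a tRF_5′ and a tRF_3′ of about the same length. For Asp only the first 17 bases of a gene at chr13:21940374-21940390 on the minus strand were in the sources used here.
n-TDgtc12: tcctcgttagtatagtg

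The RefSeq annotation used here lists 13 Asn genes of 74 bases, 16 Asp genes and 10 His genes of 72 bases and 10 Tyr genes of 86 to 93 bases including introns, on 7, 6, 3 and 4 chromosomes. The mitochondrial tRNAs with the same anticodons are separate genes, whose counts are given further on.
mt-Th: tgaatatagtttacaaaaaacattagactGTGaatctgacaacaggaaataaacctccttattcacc
mt-Td: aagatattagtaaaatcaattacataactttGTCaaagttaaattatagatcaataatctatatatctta
mt-Tn: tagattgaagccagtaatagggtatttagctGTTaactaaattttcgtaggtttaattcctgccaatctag
mt-Ty: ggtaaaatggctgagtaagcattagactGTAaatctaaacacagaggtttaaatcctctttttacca

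Of the members, 46 rows in tissue, 43 in fluid and 39 in sperm had enough counts to be tested. No row left out exceeded 28 counts in a tissue library, 14 in a fluid library or 68 in a sperm library. In fluid 2 rows were listed at 0 in every library, and in sperm also 2. In sperm 8 of the 12 untested rows were of Asn, among them all 3 rows of Asn-GTT-5. A read that matched several isodecoders equally well was counted on each, and 6 fluid and 4 sperm members held the same counts as another member. The rows were therefore also summed to 12 values, 1 for each anticodon and fragment type, which count such a read once for each isodecoder. Other than the marker levels, CPM values are scaled by TMM (trimmed mean of M-values), and since a read is 1 fragment they were not divided by length. CPM values of tissue, fluid and sperm were scaled in separate tables.

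His 3′ fragments were the most counted of the set in fluid. The His tRF_3′ sum stood at 71527, 56829 and 79615 CPM in WT caput fluid, at 64873, 45758 and 37965 in corpus fluid and at 92397, 58698 and 102806 in cauda fluid. In the matching KO fluids it was 58913, 60081 and 99372, then 41998, 30187 and 37250, then 41224, 96125 and 71361. WT and KO overlapped in all 3 segments. Its most counted isodecoder row, His-GTG-2 tRF_3′, held 50.0% of the sum as His-GTG-3 held nearly equal counts, whereas His-GTG-2 tRF_5′ held 98.8 to 99.6% of the fluid tRF_5′ sum.

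In tissue the first places were shared by His and Tyr 3′ fragments. Taking the most counted isodecoder of each anticodon and type, WT caput tissue had 404 ± 254 CPM (SD, n = 3) of His-GTG-2 tRF_3′ and 354 ± 117 of Tyr-GTA-3 tRF_3′, and these overlapped. WT cauda tissue had 399 ± 94.4 of Tyr-GTA-3 tRF_3′ and 230 ± 144 of His-GTG-2 tRF_3′. Of these top isodecoders Tyr-GTA-3 tRF_5′ was the least counted in tissue, with WT means of 3.82 CPM in cauda to 6.71 in caput. Summed over isodecoders, Tyr tRF_5′ and Asn tRF_5′ were close, at 19.1 and 18.1 CPM in WT caput tissue. In sperm the order was led by His-GTG-2 tRF_3′ at 422 ± 344 CPM in WT (n = 4) and by Asp-GTC-1 tRF_3′ at 416 ± 88.6 in KO. Each overlapped the next, Asp-GTC-1 tRF_other, at 391 ± 192 in WT and 351 ± 69.8 in KO. Tyr-GTA-3 tRF_5′ was again lowest, at 6.46 ± 2.89 in WT and 2.33 ± 0.388 in KO.

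**Figure D1:**
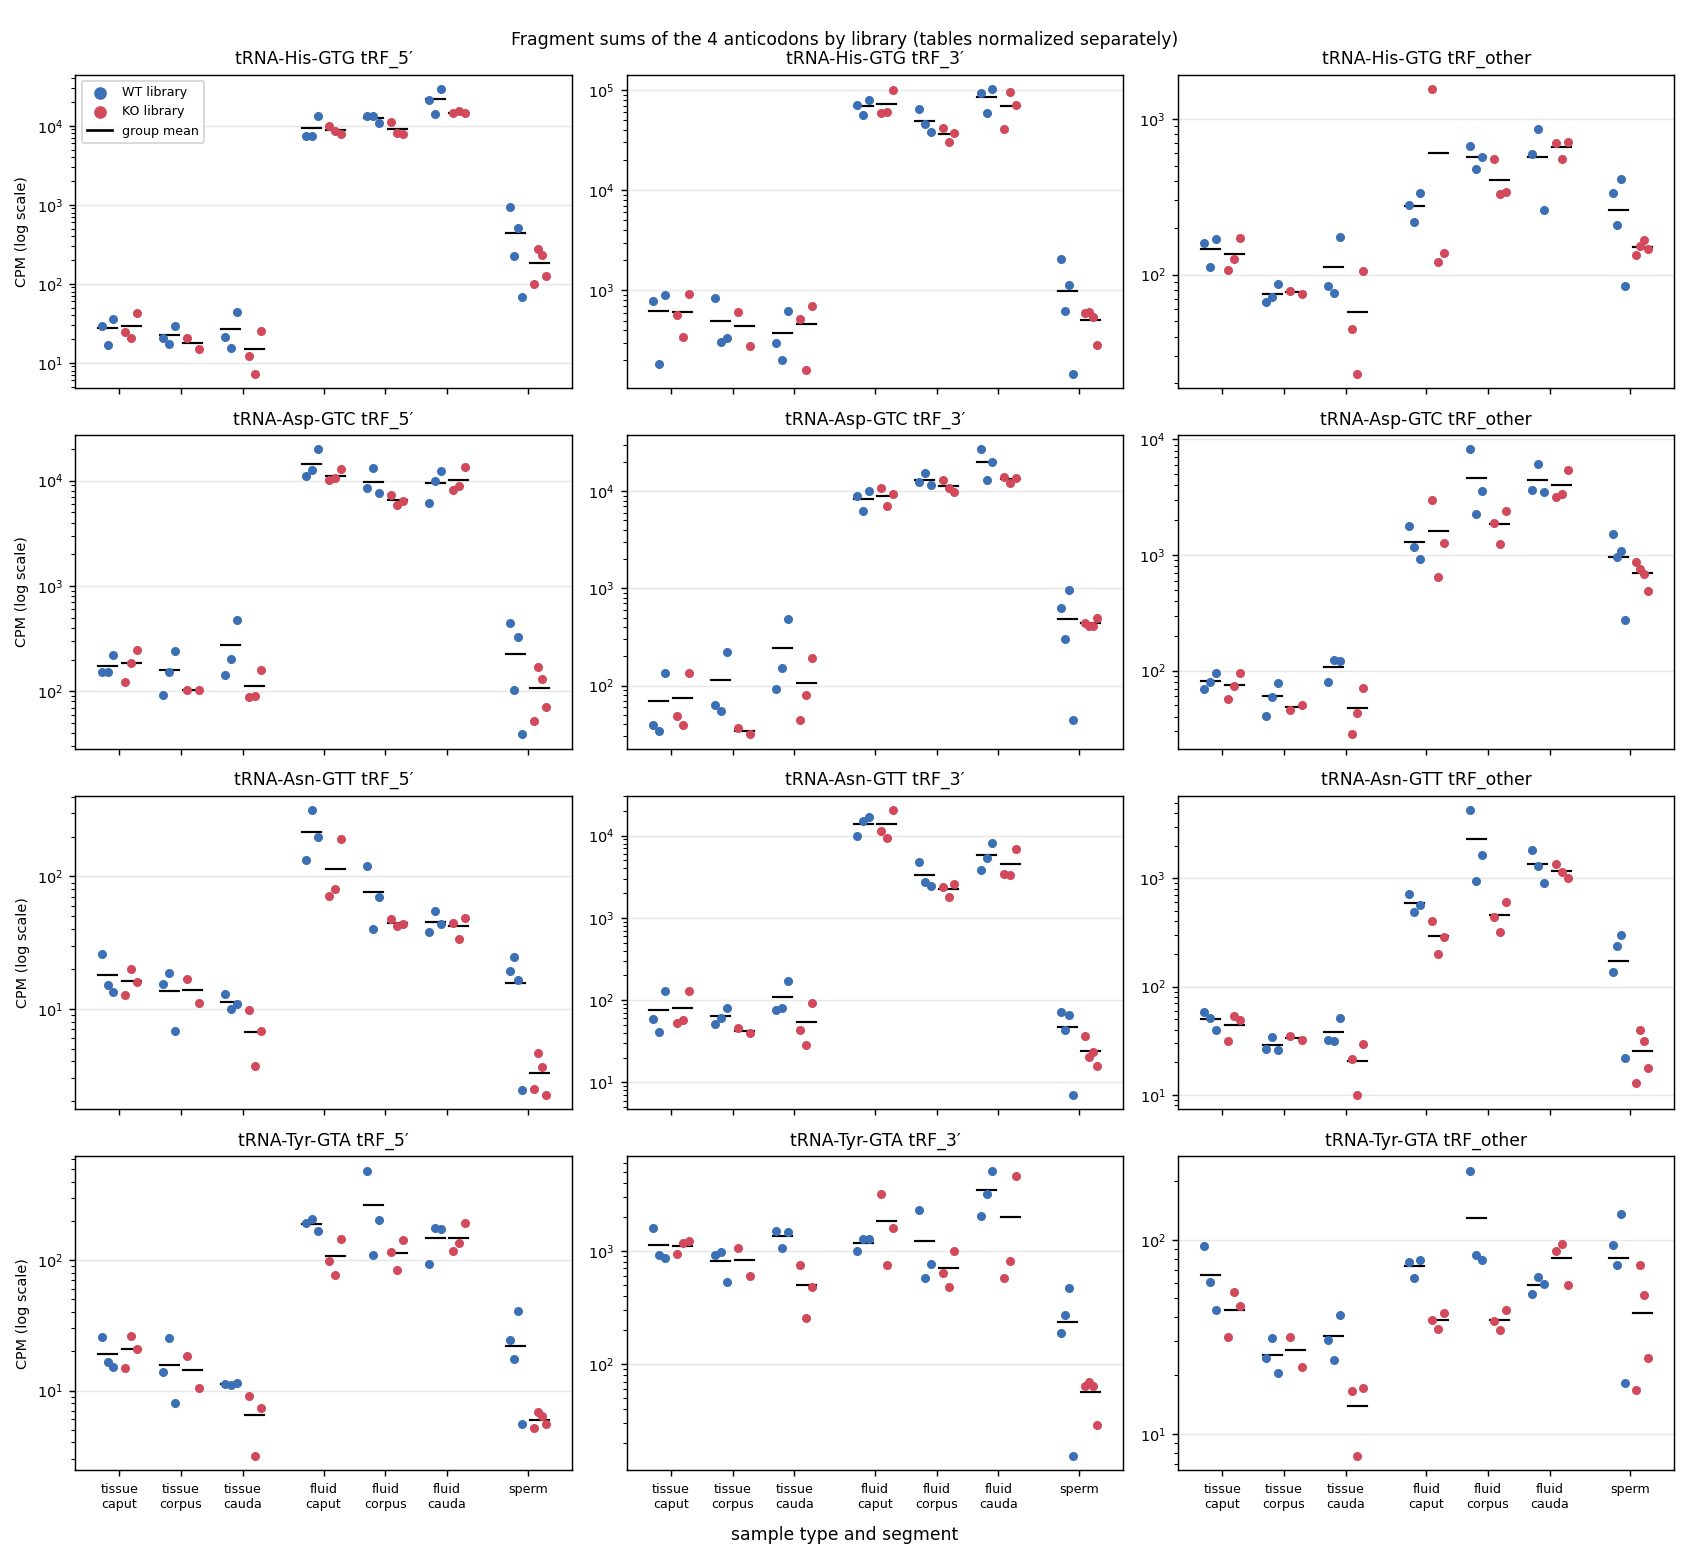
Levels of the 12 fragment sums in each library, in CPM on a log axis, by sample type and segment, with WT libraries in blue, KO libraries in red and a bar at each group mean. His tRF_3′ reaches 37965 to 102806 CPM in WT fluid, and in sperm WT replicate 4 is the lowest WT point in the Tyr tRF_3′ panel at 15.6.

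The 4 anticodons took 6.29 to 10.3% of tRF counts in tissue (median 8.13%), 10.8 to 20.7% in fluid (median 13.7%) and 5.22 to 8.49% in sperm (median 7.26%), while tRFs as a whole were 0.69 to 5.20%, 73.6 to 87.9% and 1.51 to 8.39% of all counts. These shares add all isodecoder rows, so a read shared by isodecoders counts once for each. On that count Tyr was the largest of the 4 in most tissue libraries, with 2.42 to 6.20% of tRF counts, but held 0.108 to 0.415% in fluid and 0.282 to 1.0% in sperm. By the most counted isodecoder, His tRF_3′ had a higher mean than Tyr tRF_3′ in every tissue group but WT cauda, with overlap in each group. His went the other way, from 1.17 to 4.43% in tissue to 7.03 to 16.3% in fluid, and was 2.14 to 4.20% in sperm. Asp held 0.709 to 3.03% in tissue, 2.15 to 4.87% in fluid and 2.57 to 5.15% in sperm. Asn was at 0.375 to 0.688% in tissue, 0.389 to 2.11% in fluid and 0.149 to 0.632% in sperm. Sample type, library method and preparation changed together between the tables, so their parts cannot be told apart and no test was made across them.

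**Figure D2:**
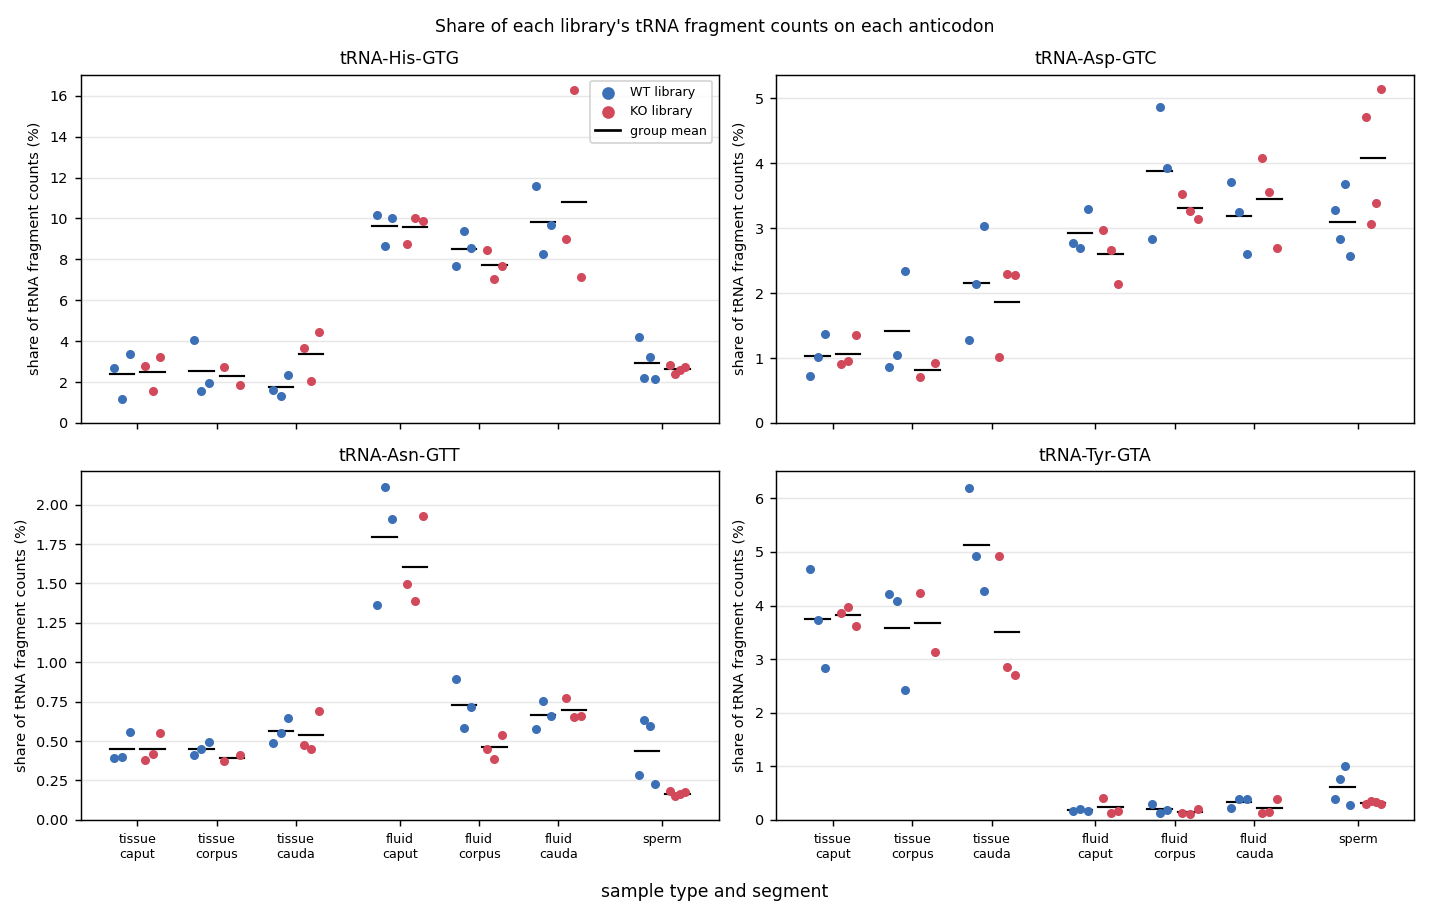
Share of each library's tRF counts on each anticodon, in percent on linear axes that start at 0, with 1 point per library (WT blue, KO red) and a bar at each group mean. Tyr lies at 2.42 to 6.20% in tissue and at 0.108 to 0.415% in fluid, His reaches 16.3% in fluid, and the 4 KO sperm libraries lie below the 4 WT libraries for Asn.

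KO and WT were compared for 35 shares, the 4 anticodons and their total in each of 7 comparisons, by two-sided exact permutation tests. The smallest p such an exact test allows is 0.1 for 3 against 3 libraries, 0.2 for 3 against 2 and 0.0286 for 4 against 4. Asn in sperm reached that limit, at 0.167 ± 0.0145% of tRF counts in KO and 0.435 ± 0.208% in WT (n = 4, exact permutation p = 0.0286), with all 4 KO libraries lower. In corpus fluid Asn was 0.46 ± 0.0765% in KO and 0.731 ± 0.158% in WT, with all 3 KO libraries lower (n = 3, exact permutation p = 0.1). After Benjamini-Hochberg adjustment over the 35, the lowest adjusted p of the permutation tests was 0.778. Given the smallest p that these tests allow, no share could have passed the adjustment, however large its difference. The adjusted values therefore cannot decide whether a share changed.

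The split into fragment types differed by anticodon and by sample type. The shares are of the sums, so a read counts once for each isodecoder it matched. In WT caput fluid 94.2 ± 1.94% of Asn counts were tRF_3′ and 4.33 ± 2.07% were tRF_other (SD, n = 3), and in WT sperm 21.4 ± 7.61% were tRF_3′ and 71.5 ± 8.62% tRF_other (n = 4). The most counted Asn isodecoder, Asn-GTT-3, was less uneven in WT sperm. It had 44.5 ± 31.7 CPM of tRF_other and 33.9 ± 20.6 of tRF_3′, with overlap. By these sums Asp had the largest mean part of tRF_5′ in every tissue and fluid group. It was 59.6 ± 7.62% in WT caput fluid and 54.8 ± 5.11% in WT caput tissue. The most counted isodecoders did not keep this order in every group. In WT cauda fluid Asp-GTC-1 had 3157 ± 1379 CPM of tRF_5′ beside 14817 ± 5723 of tRF_3′, and His-GTG-2 had 19509 ± 8074 beside 38304 ± 12327. In WT sperm the largest mean part of tRF_5′ in the sums was held by His, at 24.3 ± 3.03%, while Asp was 12.3 ± 4.09% tRF_5′ and 62.9 ± 13.8% tRF_other. Tyr was 93.0 ± 0.74% tRF_3′ in WT caput tissue and 96.9 ± 0.356% in WT cauda tissue. His tRF_other was 22.4 ± 11.5% of His counts in WT caput tissue and 0.349 ± 0.0109% in WT caput fluid.

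**Figure D3:**
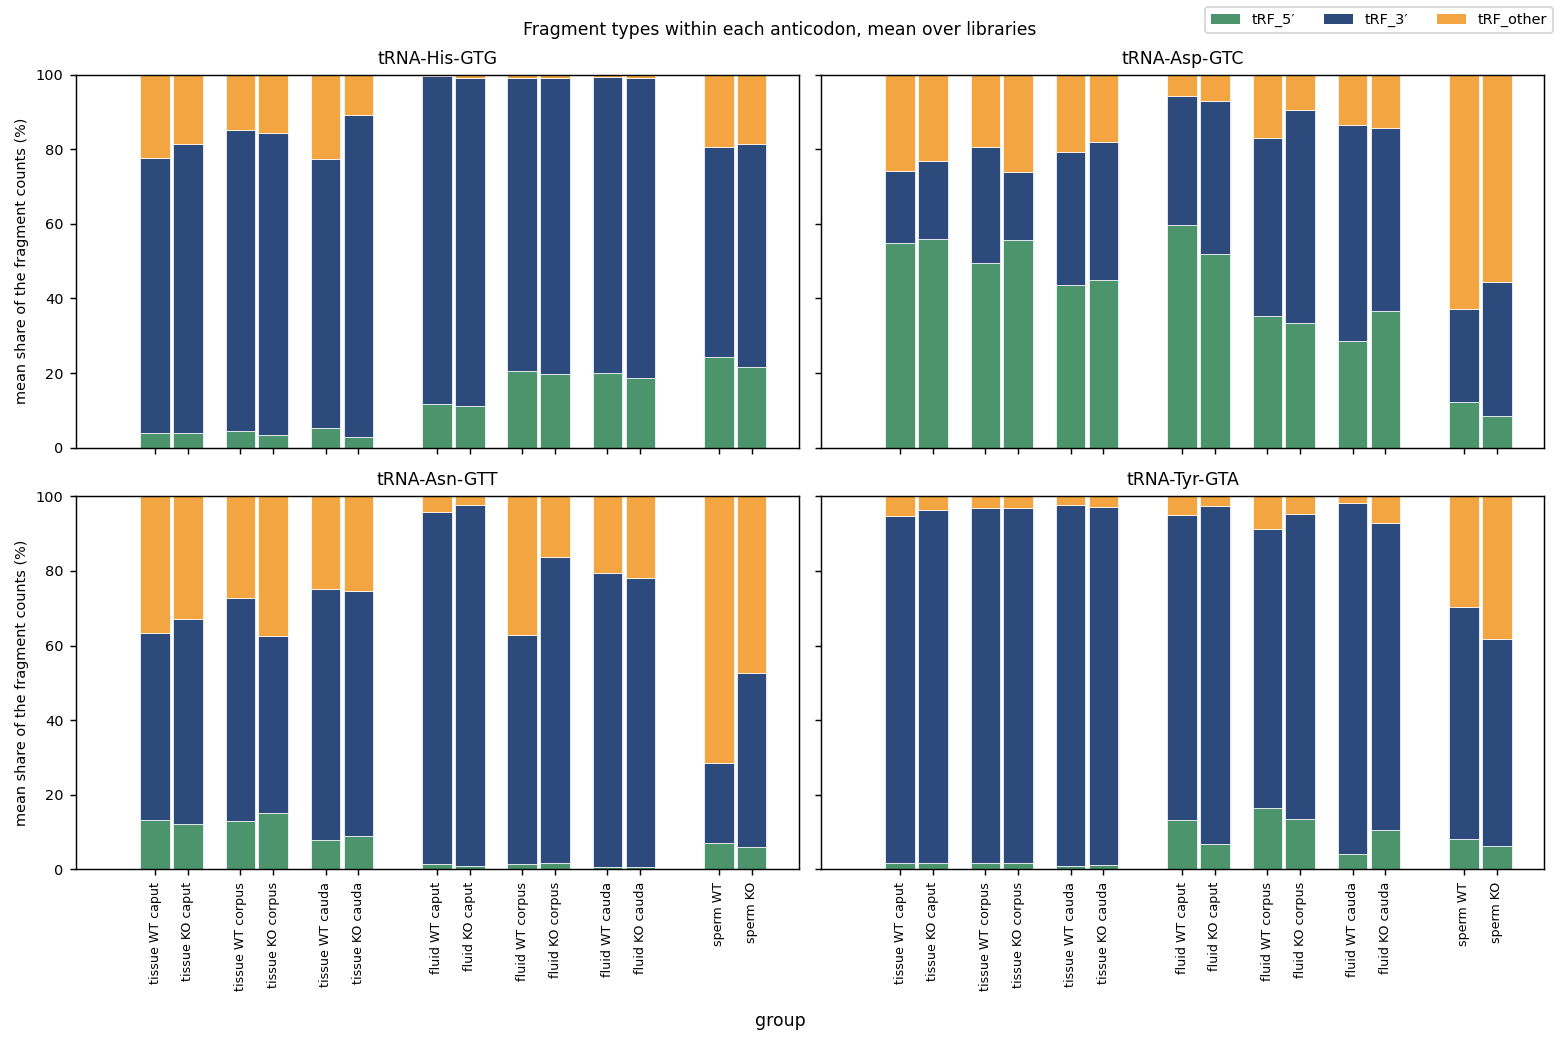
Stacked bars of the mean share of tRF_5′ (green), tRF_3′ (blue) and tRF_other (orange) within the counts of each anticodon, from 0 to 100%, for the 14 groups. Counts are summed over isodecoders, and a shared read counts once for each. Asn tRF_other is 4.33% in WT caput fluid, 37.1% in WT corpus fluid and 71.5% in WT sperm, and Tyr is 93.0% tRF_3′ in WT caput tissue.

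The KO was next set against WT in each segment of tissue and fluid and in sperm, the question of the study being whether loss of the gene cluster alters small RNAs. An RNA was called when edgeR's quasi-likelihood test gave a Benjamini-Hochberg adjusted p under 0.05, the adjustment covering every RNA tested, and the fold exceeded 1 on the log2 scale. In bulk samples fewer cells of a type and less RNA per cell cannot be told apart.

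Corpus fluid was the comparison with called members. The tRF_other fragments of Asn and Tyr, reads that start and end away from both ends of the tRNA, were lower in KO. Of 43 members tested 11 were called lower and 0 higher, against 6.23% of all 2023 RNAs called lower and 13.5% called higher. By type these were 10 of 16 tRF_other rows, 1 of 14 tRF_5′ rows and 0 of 13 tRF_3′ rows, and by anticodon 5 of 14 Tyr, 4 of 10 Asn, 2 of 9 His and 0 of 10 Asp. The median log2 fold of the members was -0.55, beside 0.10 over all RNAs and -0.58 over the 518 other tRF rows tested, of which 95 were called lower. DESeq2 also called 11 members lower, where it called 6.9% of the RNAs it tested.

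Asn tRF_other, summed over isodecoders, stood at 4269, 938 and 1645 CPM in WT corpus fluid and at 440, 319 and 607 in KO. All 3 KO libraries were below all 3 WT libraries, and WT replicate 1 was far above the other WT libraries. The sum fell by 2.33 on the log2 scale (SE 0.458, edgeR adjusted p = 0.00563), with means of 455 ± 144 in KO and 2284 ± 1755 in WT (SD, n = 3). Left without WT replicate 1, it was called at -1.56 (edgeR adjusted p = 0.0315), and it was called in each of the 6 fits that left out 1 library, at -1.56 to -2.76. The called rows were Asn-GTT-1 to Asn-GTT-4, at -1.97 to -2.03, and they held nearly the same counts, as rows that share reads do. For Asn-GTT-4 these were 865, 272 and 425 CPM in WT and 129, 94.5 and 161 in KO (SE 0.429, edgeR adjusted p = 0.00235).

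Tyr tRF_other was 227, 83.7 and 78.96 CPM in WT corpus fluid and 38.3, 34.4 and 43.6 in KO. All KO libraries were lower, with means of 38.8 ± 4.63 and 130 ± 84.1 (SD, n = 3). The sum fell by 1.74 on the log2 scale (SE 0.386, edgeR adjusted p = 0.00572). Here the call rested on WT replicate 1, without which the value was -1.12 (edgeR adjusted p = 0.0547). The rows Tyr-GTA-1 to Tyr-GTA-5 tRF_other each held about a like part of this sum, at 37.3, 19.97 and 16.5 CPM in WT and 9.22, 8.37 and 9.53 in KO for Tyr-GTA-1 (log2 fold -1.45, SE 0.405, edgeR adjusted p = 0.0169). The 5 rows are 1 set of shared reads more than 5 separate measurements.

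The called His rows were both of the isodecoder His-GTG-3. His-GTG-3 tRF_other was 155, 120 and 131 CPM in WT corpus fluid and 46.9, 29.98 and 57.6 in KO, with no overlap (log2 fold -1.60, SE 0.434, edgeR adjusted p = 0.0139). His-GTG-3 tRF_5′ was 17.6, 20.3 and 17.9 CPM in WT and 9.63, 7.56 and 7.46 in KO (log2 fold -1.18, SE 0.388, edgeR adjusted p = 0.0356). The His sums, in which other isodecoders weigh more, were -0.44 for tRF_3′, -0.46 for tRF_5′ and -0.49 for tRF_other, and none was called.

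Of the remaining sums in corpus fluid, Asp tRF_other was 8196, 2246 and 3570 CPM in WT and 1885, 1235 and 2412 in KO (log2 fold -1.34, edgeR adjusted p = 0.0694), and WT and KO overlapped. Tyr tRF_5′ was 486, 110 and 202 CPM in WT and 115, 83.9 and 143 in KO (log2 fold -1.23, edgeR adjusted p = 0.0618), again with overlap. Neither was called, though both passed when WT replicate 2 was left out, at -1.73 for Asp tRF_other and -1.66 for Tyr tRF_5′. The smallest value was of Asp tRF_3′, at -0.22. Asp shares the enzyme DNMT2 with Gly-GCC and Val-AAC, of which 0 of 12 and 0 of 15 rows were called here (medians -0.13 and -0.61, beside -0.39 for Asp). In all 2 of 12 sums were called, against 4.81% of all sums and RNAs tested called lower, and the number was 1 without WT replicate 1 (1.68% of all lower) and 4 without WT replicate 2 (5.64%).

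The number of called members was 5 without WT replicate 1 (the 4 Asn tRF_other rows and His-GTG-3 tRF_other), 5 without KO replicate 2 (the same Asn rows and Tyr-GTA-1 tRF_other), and at most 13 when another library was left out. All RNAs called lower made up 1.72% without WT replicate 1 and 2.66% without KO replicate 2. With library size as the only scaling 5 members were called (2.92% of all RNAs lower), and 24 were with TMM factors taken without tRFs, tRNAs and rsRNAs, the fragments of ribosomal RNA (23% lower). That second scaling moved the median of all RNAs from 0.10 to -0.71 and their calls from 126 lower and 273 higher to 466 lower and 144 higher. Asn tRF_other and Tyr tRF_other were lower under each of these scalings.

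Other RNAs also differed between these libraries. The epithelial miRNAs (5 of 5 in the table) were at 89.3 to 166 CPM in KO corpus fluid and 28.3 to 76.5 in WT, the germ line miRNAs (3 of 5) at 12.9 to 17.96 and 3.74 to 11.3, and the 442 piRNA rows at 2343 to 5279 and 1146 to 1611, with no overlap in any of the 3. Smooth muscle miRNA (1 of 2) was at 77.98 to 196 and 41.7 to 88.99. The KO libraries held 1948718 to 3373869 counts and the WT libraries 3989262 to 10172577. The part of these differences in the lower members was not tested. Against tRFs alone, which leaves out the balance of tRFs with other RNAs, Asn tRF_other was lower, at -1.5 on the log2 scale (SE 0.436, edgeR adjusted p = 0.0301), where 6.71% of the 149 tRF sums were called lower, and no other sum of the set was called. That call was lost when any single library but WT replicate 2 was left out.

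**Figure D4:**
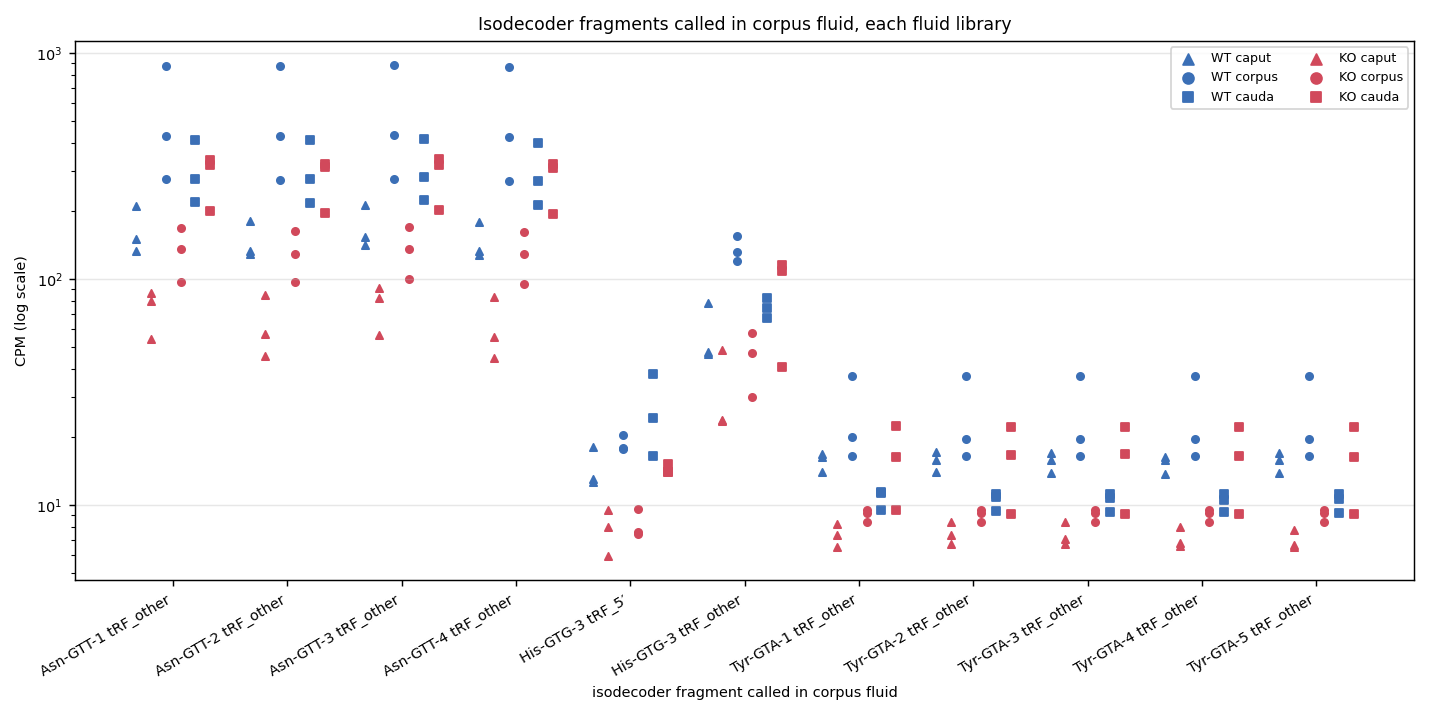
The 11 isodecoder fragments called in corpus fluid, in every fluid library, in CPM on a log axis, with triangles for caput, circles for corpus and squares for cauda (WT blue, KO red). In corpus the KO circles lie under the WT circles for each fragment, as at 129, 94.5 and 161 against 865, 272 and 425 for Asn-GTT-4 tRF_other, and in cauda the Tyr-GTA-1 tRF_other squares run from 9.47 to 11.4 in WT and from 9.49 to 22.3 in KO.

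The make-up of Asn moved with this. In corpus fluid tRF_other was 16.4 ± 2.19% of Asn counts in KO and 37.1 ± 10.7% in WT, and tRF_3′ was 81.9 ± 1.91% and 61.5 ± 10.9% (SD, n = 3). For Tyr, tRF_other was 4.77 ± 1.03% and 8.66 ± 1.90%, and for Asp tRF_3′ was 57.2 ± 4.21% and 47.8 ± 4.49%. KO and WT libraries did not overlap in these shares, each at the smallest p that 3 against 3 allow (n = 3, exact permutation p = 0.1). Over all 84 type shares compared, 19 did not overlap and the lowest adjusted p of the permutation tests was 0.494. With the most counted isodecoder in place of the sum, that lowest adjusted p was 0.467. With so few libraries no type share could have passed the adjustment, so it cannot decide whether a share changed. Chance alone parts 3 against 3 libraries at a rate of 0.1, and 3 against 2 more often. The types of an anticodon add up to its whole, so the 19 are not independent. No such count was made for other anticodons. The shares count a read once for each isodecoder it matched, which raises the part of Asn tRF_other, spread over rows of nearly the same counts. Asn-GTT-3, the most counted, had 135 ± 35.0 CPM of tRF_other beside 2584 ± 374 of tRF_3′ in KO. In WT it had 531 ± 314 beside 3190 ± 709.

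Caput fluid had 0 called members by edgeR, where 0% of all RNAs were called lower, and 0 by DESeq2 (0.0867% of its RNAs lower). At an unadjusted p under 0.05, 13 members were lower and 0 higher, against 5.14% and 5.44% of all RNAs, and 7 of these were of Tyr, 5 of Asn and 1 of His. Asn tRF_other was 716, 488 and 563 CPM in WT and 404, 199 and 285 in KO. Tyr tRF_other was 77.02, 63.7 and 78.8 in WT and 38.6, 34.7 and 42.1 in KO. All KO libraries were below WT in both (log2 fold -0.99 and -0.93, edgeR adjusted p = 0.407 and 0.383). His tRF_other was 280, 217 and 333 CPM in WT and 1558, 121 and 137 in KO, where replicate 1 alone was high (log2 fold 1.13, edgeR adjusted p = 0.565). The epithelial miRNAs were at 236 to 289 CPM in KO caput fluid and 97.0 to 168 in WT, and the germ line miRNAs at 3.42 to 3.84 and 1.85 to 3.29, both without overlap, and their part was not tested.

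Cauda fluid had 0 called members by edgeR (0% of all RNAs lower) and 0 by DESeq2 (0.728% of its RNAs lower). With the p left unadjusted, 2 members fell under 0.05 on the lower side and 2 on the higher, against 2.82% and 6.48% of all RNAs. The 12 sums ran from -0.79 (Tyr tRF_3′) to 0.46 (Tyr tRF_other), with edgeR adjusted p of 0.611 or more. Tyr tRF_3′ was 2020, 3165 and 5099 CPM in WT and 577, 821 and 4548 in KO, so replicate 3 of KO lay with WT and the other KO libraries below it. Without that library 1 member, Tyr-GTA-4 tRF_3′, was called lower, at -2.27 (edgeR adjusted p = 0.0456). The member with the smallest p was Asp-GTC-3 tRF_other at 0.644, 1.14 and 1.02 CPM in WT and 3.16, 6.32 and 1.83 in KO (log2 fold 2.0, edgeR adjusted p = 0.382).

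The KO difference of Tyr tRF_other was larger in corpus than in cauda fluid. The log2 fold in corpus minus that in cauda was -2.21 (SE 0.536, edgeR adjusted p = 0.027), and it was the single sum called out of 12, against 1.25% of all sums called lower. Asn tRF_other differed by -2.11 (SE 0.624, edgeR adjusted p = 0.0571). Among rows 6 were called, all 5 Tyr tRF_other rows at -2.03 to -2.06 and Asn-GTT-4 tRF_other at -1.93 (edgeR adjusted p = 0.0468), against 2.87% of all RNAs. The sum was no longer called when WT corpus replicate 1, KO corpus replicate 1 or KO cauda replicate 2 was left out, or with library size as the only scaling. By edgeR 0 of the 12 sums were called in the other segment pairs compared, in fluid or tissue.

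**Figure D5:**
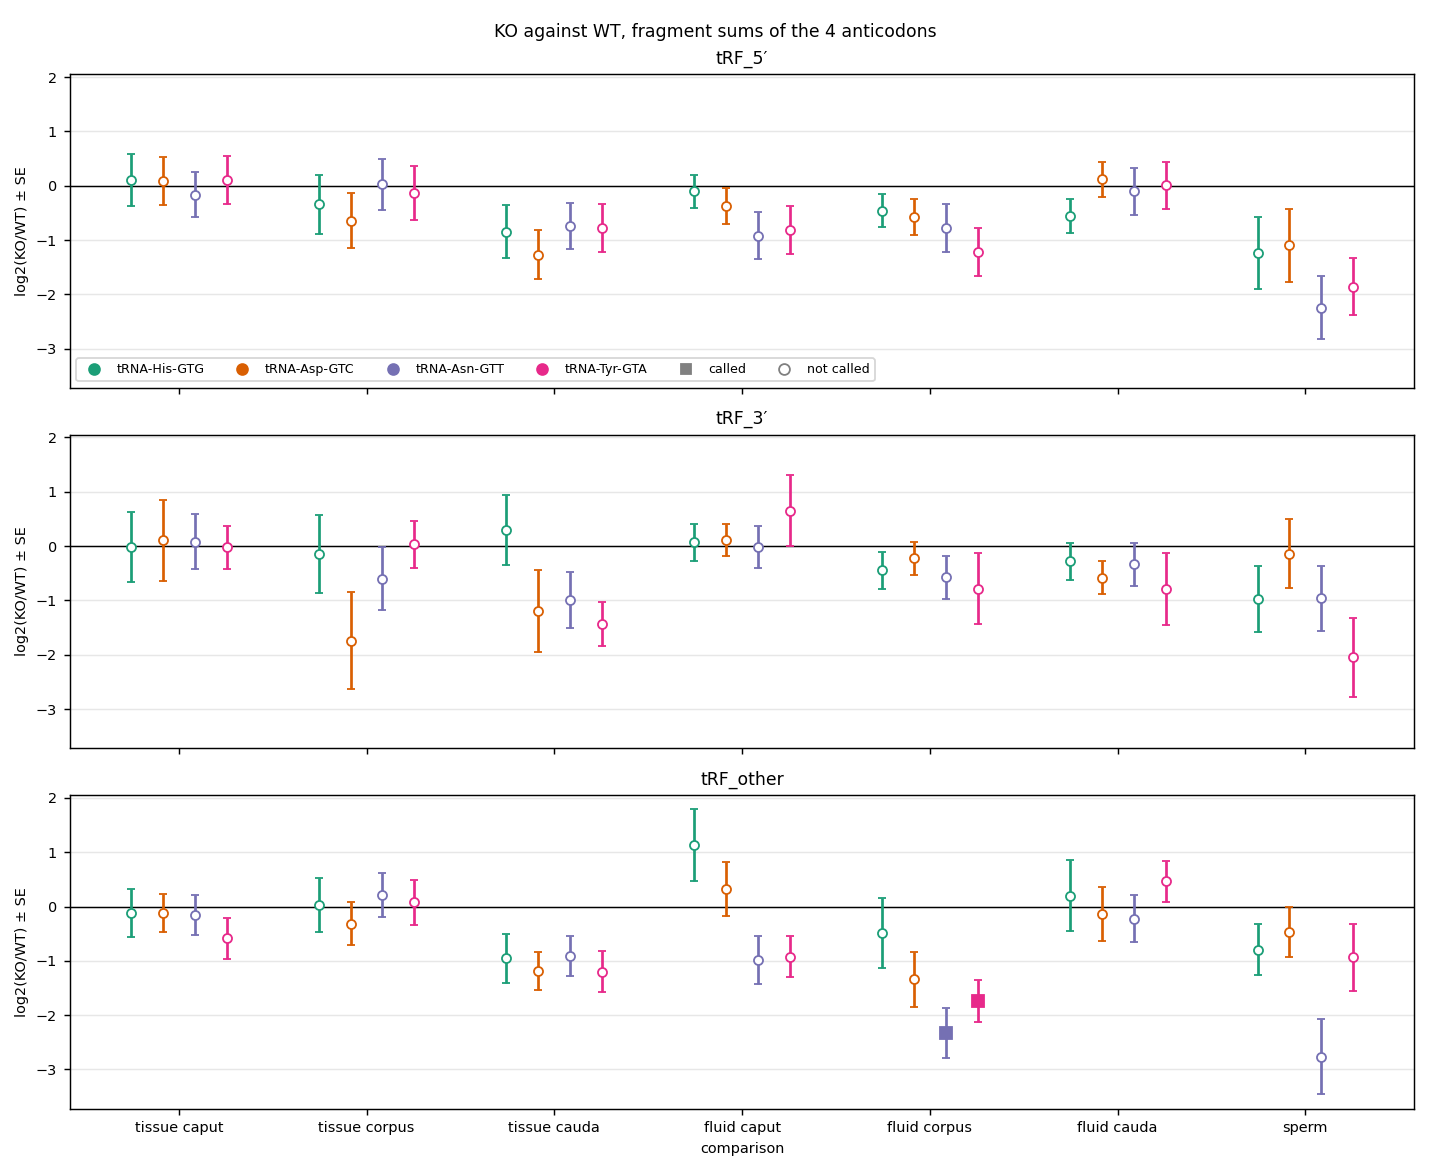
Log2 KO over WT of the 12 sums with bars of 1 SE, in 7 comparisons, with 1 panel per fragment type, colours for anticodons, filled squares for called and open circles for not called. The 2 filled squares are Asn and Tyr tRF_other in corpus fluid, at -2.33 and -1.74, and the lowest open circle is Asn tRF_other in sperm at -2.76.

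Cauda tissue had 0 called members of 46 by edgeR, where 0.831% of all RNAs were called lower. At an unadjusted p under 0.05, 13 members were lower and 0 higher, against 7.37% and 7.74% of all RNAs, and DESeq2 called 5 members lower (4.7% of its RNAs). The log2 fold was negative in 44 of the 46 members, with a median of -0.75 beside 0.12 over all RNAs and -0.54 over the 560 other tRF rows, of which 3 were called lower. Tyr made up most of the 13, with 9 of its 14 rows, beside 3 of 11 Asp, 1 of 12 Asn and 0 of 9 His rows. Of the other DNMT2 substrates, Gly-GCC had 6 of 12 rows and Val-AAC 13 of 15 lower at that p. KO and WT cauda tissue libraries of the same number deviated together, with correlations of 0.28, 0.27 and 0.60. Blocked by that number, a pairing that the labels do not state, 7 members were called lower (3.47% of all RNAs). Without the block 2 were called when KO replicate 1 was left out, 1 without KO replicate 2 and 1 without KO replicate 3.

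Tyr tRF_3′ was 1489, 1058 and 1474 CPM in WT cauda tissue and 751, 256 and 480 in KO, with all KO libraries lower (means 1341 ± 245 and 496 ± 248, SD, n = 3). The log2 fold was -1.43 (SE 0.398, edgeR adjusted p = 0.0988), and -1.55 (edgeR adjusted p = 0.0025) with the replicate block. Asp tRF_other was 79.9, 123 and 122 CPM in WT and 28.1, 43.5 and 71.0 in KO, also without overlap (log2 fold -1.19, edgeR adjusted p = 0.142, and -1.26 with adjusted p = 0.00726 in the block). Tyr tRF_other was 30.5, 24.1 and 40.8 CPM in WT and 16.6, 7.73 and 17.3 in KO, again apart (log2 fold -1.2, edgeR adjusted p = 0.163, and -1.25 with adjusted p = 0.0221 in the block). With the block 7 of the 12 sums were called, the others being Asp tRF_5′ at -1.13, His tRF_other at -1.12, Asp tRF_3′ at -1.10 and Asn tRF_3′ at -1.06, against 5.11% of all sums lower, and without it 0 of 12 were (1.46%).

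His tRF_3′ was the exception among the cauda tissue sums. It was 297, 202 and 627 CPM in WT and 518, 162 and 694 in KO, and KO and WT overlapped (log2 fold 0.29, SE 0.645, edgeR adjusted p = 0.928). Relative to all tRFs and with the replicate block it was called higher, at 1.06 (SE 0.2, edgeR adjusted p = 0.00339), where 1.33% of the 150 tRF sums were. Within His counts tRF_3′ was 86.2 ± 3.45% in KO and 72.2 ± 2.91% in WT, and tRF_other 10.9 ± 2.73% and 22.5 ± 2.88%, with no overlap (n = 3, exact permutation p = 0.1). Of the tissue markers, epithelial miRNAs were at 4.25 to 8.19 CPM in KO and 5.61 to 19.2 in WT cauda, and smooth muscle miRNA at 59.0 to 105 and 65.8 to 215. Their part in the lower members was not tested.

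Caput and corpus tissue had 0 called members by edgeR, with 0% of all RNAs called lower in either, and 0 by DESeq2 (0% and 0.855% of its RNAs lower). At an unadjusted p under 0.05 there were 0 members lower and 0 higher, against 0.659% and 0.315% of all RNAs in caput and 7.22% and 0.774% in corpus. In caput tissue the sums lay between -0.59 (Tyr tRF_other) and 0.11, and the median of the members was 0.01 beside 0.04 over all RNAs. In corpus tissue the lowest was Asp tRF_3′ at 63.2, 54.6 and 221 CPM in WT and 36.3 and 31.5 in KO (log2 fold -1.74, SE 0.886, edgeR adjusted p = 0.528). Both KO libraries were lower, but WT replicate 3 was well above the other WT libraries. Epithelial miRNAs were at 8.16 to 9.99 CPM in KO and 13.4 to 27.1 in WT corpus tissue. Smooth muscle miRNA was at 17.3 to 25.6 and 34.2 to 76.6, and the piRNA rows at 113 to 158 and 172 to 463. None of these overlapped, while the germ line miRNAs did, and their part was not tested. The median of the members there was 0.03 beside -0.04.

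Sperm had 0 called members of 39 by edgeR (0% of all RNAs lower), and 10 called lower by DESeq2 (4.44% of its RNAs). At an unadjusted p under 0.05, 15 members were lower and 0 higher, against 9.48% and 8.02% of all RNAs. These were 9 of 14 Tyr, 5 of 7 Asn and 1 of 8 His rows. The log2 fold was negative in 37 of 39, with a median of -0.84 beside -0.00 over all RNAs and -0.64 over the 494 other tRF rows.

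Asn tRF_other in sperm was 136, 238, 298 and 22.04 CPM in WT and 12.96, 39.7, 31.4 and 17.8 in KO. WT replicates 1 to 3 were above every KO library, and WT replicate 4 lay among the KO libraries. The log2 fold was -2.76 (SE 0.695, edgeR adjusted p = 0.189). In Asn tRF_5′ too, WT replicates 1 to 3 were above every KO library and replicate 4 was not, with 19.3, 24.6, 16.4 and 2.45 CPM in WT and 2.46, 4.66, 3.61 and 2.22 in KO (log2 fold -2.24, edgeR adjusted p = 0.204). Tyr tRF_3′ was 188, 273, 466 and 15.6 CPM in WT and 63.6, 69.7, 64.2 and 29.2 in KO (log2 fold -2.05, edgeR adjusted p = 0.30). Here WT replicate 4 was the lowest of all 8.

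WT replicate 4 held 45740 tRF counts and 2386 member counts. Without it 16 members (7.3% of all RNAs) and 4 sums (4.37%) were called lower, the sums being Asn tRF_other at -3.06, Asn tRF_5′ at -2.54, Tyr tRF_3′ at -2.38 and Tyr tRF_5′ at -2.13, with edgeR adjusted p of 0.00235 to 0.0062. Depth differed within both genotypes, from 1134840 to 52607365 counts in WT (3025269 in replicate 4) and from 3618739 to 62128314 in KO. The piRNA rows were at 3440 to 12864 CPM in WT and 2755 to 3931 in KO sperm, and their part was not tested.

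Relative to all tRFs, Asn tRF_other was lower in KO sperm, by -1.66 (SE 0.42, edgeR adjusted p = 0.0369), with all 4 KO libraries below all 4 WT libraries. It was the only sum of the set called among 145 tRF sums, of which 6.9% were called lower, and the call was lost with the replicate block and without WT replicate 2, WT replicate 3 or any KO library. Asp tRF_3′ stood on the other side, with all 4 KO libraries higher relative to tRFs (log2 fold 1.24, SE 0.41, edgeR adjusted p = 0.0677). In CPM it was 633, 303, 954 and 44.1 in WT and 441, 408, 410 and 497 in KO (log2 fold -0.14, edgeR adjusted p = 0.936).

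The WT segments were compared to show how the fragments vary along the duct. Both comparisons of a kind share the WT caput libraries, which for fluid are the libraries with the differing section label. In fluid Asn 5′ and 3′ fragments were lower and inner Asp fragments higher further down the duct. From caput to cauda fluid 8 members were lower and 6 higher of 43, against 15.4% and 9.69% of all RNAs, and from caput to corpus fluid 3 were lower and 8 higher, against 9.54% and 8.21%. The balance in cauda changed with the scaling, to 3 lower and 8 higher with TMM factors taken without tRFs, tRNAs and rsRNAs (10.7% and 12.7% of all RNAs), 7 and 10 with DESeq2 size factors (13.2% and 12.5%) and 8 and 12 with DESeq2 (11.9% and 11.2%). The 14 called in cauda became 5 without WT caput replicate 2, 9 without WT caput replicate 3 and 7 without WT cauda replicate 1, and the 11 in corpus became 6, 6 and 3 without WT caput replicates 2 or 3 or WT corpus replicate 1. Markers moved along the WT fluids as well. Epithelial miRNAs were at 97.0 to 168 CPM in caput, 28.3 to 76.5 in corpus and 49.8 to 147 in cauda, with no overlap between caput and corpus. Germ line miRNAs were at 1.85 to 3.29, 3.74 to 11.3 and 10.02 to 27.9, so both further segments lay above caput. The part of these markers was not tested.

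Asn tRF_3′ was 9799, 14941 and 16985 CPM in WT caput fluid, 4830, 2716 and 2424 in corpus and 3806, 5393 and 8087 in cauda. Caput lay above both other segments without overlap, with log2 folds of -2.07 for corpus (SE 0.408, edgeR adjusted p = 0.00386) and -1.27 for cauda (SE 0.398, edgeR adjusted p = 0.0288). Asn tRF_5′ was 134, 318 and 198 CPM in caput, 121, 39.9 and 69.7 in corpus and 37.7, 55.0 and 44.1 in cauda. It was lower in corpus at -1.5 (edgeR adjusted p = 0.0311) and in cauda at -2.25 (edgeR adjusted p = 0.00301). Asn tRF_other was higher in corpus than in caput fluid, at 1.96 (SE 0.452, edgeR adjusted p = 0.00692).

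Asp tRF_other was 1785, 1182 and 923 CPM in WT caput fluid, 8196, 2246 and 3570 in corpus and 3673, 6098 and 3505 in cauda, above caput without overlap (log2 fold 1.85 in corpus and 1.77 in cauda, edgeR adjusted p = 0.0204 and 0.0199). Asp tRF_3′ was higher in cauda at 1.26 (edgeR adjusted p = 0.00712) and His tRF_5′ at 1.2 (edgeR adjusted p = 0.0102). Isodecoders of 1 anticodon did not move as one, since Asp-GTC-1 tRF_5′ and Asp-GTC-4 tRF_5′ were each called lower in cauda at -1.17 and Asp-GTC-2 tRF_5′ was called higher at 1.24. Of the sums 5 of 12 were called from caput to cauda fluid, against 10.1% of all sums lower and 9.99% higher, and 4 of 12 from caput to corpus, against 6.43% and 6.55%. These became 3 of 12 in cauda and 2 in corpus without WT caput replicate 2 or replicate 3, and 2 in corpus without WT corpus replicate 1. Among the other DNMT2 substrates Val-AAC had 12 of 15 rows higher in cauda fluid (median log2 fold 1.89) and 8 of 15 in corpus fluid, and Gly-GCC had 1 of 12 higher in cauda fluid.

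In tissue, without the replicate block, the called members were Tyr tRF_other rows. From WT caput to corpus 5 were lower, at -1.2 to -1.39, against 2.81% of all RNAs, and from caput to cauda 3 were lower, at -1.16, -1.21 and -1.30, against 7.28%. The 5 became 0 without WT caput replicate 1 or WT corpus replicates 1 or 3, and 6 without WT caput replicate 3, the library whose section label reads cauda. The 3 became 0 without WT caput replicates 1 or 2 or WT cauda replicate 1, and 6 without WT caput replicate 3. The Tyr tRF_other sum was 92.8, 60.7 and 43.3 CPM in caput, 24.5, 31.4 and 20.7 in corpus and 30.5, 24.1 and 40.8 in cauda. It was lower in corpus at -1.36 (SE 0.379, edgeR adjusted p = 0.0231), a call lost without WT caput replicate 1 or WT corpus replicates 1 or 3. Of all sums tested 2.72% were called lower in corpus. From caput to cauda 0 of 12 sums were called by edgeR (5.58% of all lower) and 1 by DESeq2.

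Same-numbered libraries of these WT tissues also deviated together, and the replicate block changed the calls from caput to cauda. With it 7 members were called, all 5 Tyr tRF_other rows lower at -1.003 to -1.172 (9.43% of all RNAs lower) and Asp-GTC-1 tRF_3′ and Asp-GTC-2 tRF_3′ higher at 1.81 and 1.32 (19.8% higher). The Asp tRF_3′ sum was 39.7, 34.4 and 134 CPM in caput and 93.2, 152 and 484 in cauda. It was higher in cauda for each of the 3 replicate numbers though the groups overlapped. It was called higher with the block, at 1.76 (SE 0.291, edgeR adjusted p = 5.03e-05), as 23.6% of all sums were, and not without it, at 1.81 (SE 0.766, edgeR adjusted p = 0.101). Other RNAs also differed between these segments. Smooth muscle miRNA was at 27.8 to 48.2 CPM in WT caput tissue and 65.8 to 215 in cauda, and the 452 piRNA rows at 115 to 119 in caput, 172 to 463 in corpus and 431 to 712 in cauda. Caput did not overlap cauda in either, nor corpus in the piRNA rows, and their part was not tested.

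Intact and mitochondrial forms of the tRNAs gave few counts to set beside the fragments. Full-length Tyr tRNA was listed at 0 in every fluid and sperm library and held 7 to 60 counts in tissue, and full-length Asn held at most 7 in tissue, 9 in fluid and 0 in sperm. Full-length His held 348 to 12919 counts in tissue, 3 to 155 in fluid and 0 to 3 in sperm, and full-length Asp 104 to 2499, 6 to 12163 and 0 to 239. In WT, full-length His was 6.39 ± 3.11 CPM in caput fluid and 1.08 ± 0.742 in corpus fluid (SD, n = 3, log2 fold -2.43, edgeR adjusted p = 0.00704). Of all RNAs 9.54% were called lower in that comparison. The mitochondrial His tRNA mt-Th held 383 to 5652 counts in tissue and was higher in WT corpus than in caput, at 1.67 (edgeR adjusted p = 0.0119), and in cauda, at 1.25 (edgeR adjusted p = 0.0315). Of the 3488 RNAs tested in tissue, 314 were called higher in corpus and 549 in cauda. The transcript rows of the other mitochondrial tRNAs held less in tissue, with 31 to 331 counts on mt-Tn, 6 to 79 on mt-Td and 1 to 60 on mt-Ty. Each mitochondrial tRNA also had a separate locus row. In tissue these held 538 to 3824 counts for His, 112 to 1000 for Asn, 64 to 492 for Asp and 68 to 2016 for Tyr. Reads on the gene of Tyr-GTA-3-2, counted apart from the mature tRNA, were higher in KO corpus fluid, at 23.9 ± 5.01 CPM against 8.32 ± 0.796 in WT (log2 fold 1.52, SE 0.386, edgeR adjusted p = 0.00858). Of all RNAs 13.5% were called higher there, and 6 of the 8 Tyr gene rows in fluid were tested.

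As a description of likeness, the anticodon whose summed tRF level followed each of the 4 most closely over libraries was found from Pearson's r of log2 CPM, libraries sharing their depth and scaling. Over the 18 fluid libraries Asn went with Thr-CGT (r = 0.969), Tyr with Gly-ACC (0.925), Asp with Glu-TTC (0.886) and His with Leu-CAA (0.855). Over the 17 tissue libraries Asn went with Arg-CCT (0.963), Asp with Gly-GCC (0.943), Tyr with Ser-GGA (0.932) and His with Ser-AGA (0.864). Over the 8 sperm libraries the values were 0.987 for His with Gly-ACC and Tyr with Ile-AAT, 0.984 for Asn with Leu-TAA and 0.973 for Asp with Glu-TTC. None of the 4 had another of the 4 as its nearest anticodon in any table.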

How the data were processed

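The deposited values were whole-number read counts per RNA, not normalized, which the authors made from reads trimmed with cutadapt and, for OTTR-seq, deduplicated with UMI-tools. The authors mapped the reads with bowtie2 to mm10, mature tRNAs and rRNAs and counted them with a modified tRAX, in which reads that matched tRNAs best were kept on tRNAs alone and a read near the 5′ or 3′ end of a tRNA became tRF_5′ or tRF_3′. Names of the tools and build come from the submitters' processing notes and the study's methods.

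Each table was tested on its own in edgeR 4.0.16 (R 4.3.3), with filterByExpr (minimum count 10, minimum total 15), TMM and 1 quasi-likelihood model over all groups. The filter kept 3488 of 4890 tissue rows, 2023 of 3178 fluid rows and 2480 of 4323 sperm rows. The fits were made for rows, for tables in which tRF rows were summed by anticodon and type (3011, 1602 and 2095 tested) and for tRF sums alone, each with its own TMM factors, so the CPM of a sum is not the exact total of its rows. DESeq2 1.42.0 was an alternative, and other steps used python 3.11.15, pandas 2.3.3 and scipy 1.17.1. Scripts were tested on simulated data. Beside the 12 sums, rows were named if called (the 6 of smallest p where more were called, the others by number and range), or by the smallest p where none was, or as the most counted isodecoder. The members and lists were chosen with earlier results of these data known. Nothing in the labels says that tissue replicates came from separate mice, so p-values measure the spread between libraries. The replicate block used the replicate numbers in the titles, and no label says that same-numbered libraries were paired. In KO against WT cauda tissue the deviations of same-numbered libraries correlated at 0.28, 0.27 and 0.60. In WT tissue they did so between cauda and caput at 0.31, 0.39 and 0.63 and between corpus and caput at 0.31, 0.38 and 0.55. Replicate 3 was the deepest library in both cauda tissue groups, at 158606180 counts in WT and 67360266 in KO. Shared depth therefore cannot be told from a pairing.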

Additional observations from a re-analysis of the deposited data

Results flagged for a closer look

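In KO sperm, replicate 4 had the lowest Tyr tRF_3′ sum, 29.2 CPM beside 63.6, 69.7 and 64.2. On log2 CPM its gap to the nearest library was 0.895 of the range of the group, above Dixon's critical value for 4 libraries. It was 1 of 34 such tests, and chance gives about 1 in 20. The tests were of the sums and the shares of tRF counts in the same WT and KO sperm libraries, so they are not independent.

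The KO difference of Tyr tRF_other in fluid differed between segments by a test of the difference itself. The log2 fold in corpus minus that in cauda was -2.21 (edgeR adjusted p = 0.027).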

How the results depend on the processing

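The 12 sums in 7 comparisons of KO with WT were refitted under 1104 alternatives. Of these 112 had the other sign, none of them where either value was called, 26 gained a call and 1 lost it. Called members in KO against WT cauda tissue numbered 0, and became 5 with DESeq2, 1 with TMM factors taken without tRFs, tRNAs and rsRNAs, 1 with library size only, 1 with no filter, 7 with the replicate block and 0 to 2 without 1 library. In corpus fluid 11 became 24 with TMM factors from the other RNAs, 5 with library size only and 5 to 13 without 1 library. In cauda fluid 0 became 0 to 1 without 1 library, and in sperm 10 with DESeq2 and 0 to 16 without 1 library. For WT cauda against caput tissue 3 became 6 with DESeq2, 15 with TMM factors from the other RNAs, 7 with the replicate block (5 lower, 2 higher) and 0 to 6 without 1 library. For WT corpus against caput tissue 5 became 2 with library size only, 3 with no filter and 0 to 6. In fluid, 14 for WT cauda against caput became 5 to 16 and 11 for corpus against caput became 3 to 10 without 1 library.

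Called sums in cauda tissue numbered 0, and became 1 with DESeq2, 7 with the replicate block and 0 to 2 without 1 library (2 without KO replicate 3, Asp tRF_other at -1.60 and His tRF_other at -1.73). In corpus fluid 2 became 4 with DESeq2, 6 with TMM factors from the other RNAs and 1 to 4. In sperm 0 became 3 with DESeq2 and 0 to 4. For WT cauda against caput tissue 0 became 1 with DESeq2, 1 with its size factors, 3 with TMM factors from the other RNAs, 1 with the block (higher) and 0 to 2. For WT corpus against caput tissue 1 became 0 with library size only, 0 with the most counted isodecoder in place of the sum and 0 to 1. In fluid 5 for WT cauda against caput became 3 with library size only, 3 with no filter and 3 to 6, and 4 for corpus against caput became 2 to 4. Relative to all tRFs, 0 in cauda tissue became 1 (higher) with the block, 1 in corpus fluid became 0 to 1, 0 in cauda fluid became 0 to 1 and 1 in sperm became 2 with DESeq2, 0 with the block and 0 to 3. The difference between corpus and cauda fluid, with alternatives chosen after seeing the data as were those with the most counted isodecoder, went from 1 sum to 2 with TMM factors from the other RNAs, 0 with library size only, 2 with no filter and 0 to 2 without 1 library. The causes of these changes were not tested.

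TMM factors from the other RNAs also moved the balance of all RNAs called, for WT cauda against caput tissue from 254 lower and 549 higher to 721 and 473, for corpus against caput tissue from 98 and 314 to 183 and 249, for cauda against caput fluid from 312 and 196 to 217 and 257 and for corpus against caput fluid from 193 and 166 to 85 and 242. With DESeq2 size factors these were 268 and 253 in cauda and 167 and 181 in corpus fluid, and with library size only 87 and 171 in corpus fluid. The median of all RNAs was -0.42 with library size only in KO cauda tissue. Same-numbered KO and WT libraries of corpus tissue correlated at 0.15 and -0.03, and those of caput tissue at 0.03, 0.52 and 0.72. Outside tissue the correlations were of both signs, at -0.05, 0.20 and 0.03 in corpus fluid and -0.21, -0.06, 0.10 and 0.31 in sperm. The replicate block gave 10 called members in corpus fluid. Limits are 2 or 3 libraries a group outside sperm, reads shared by isodecoders, and low counts of Asn and Tyr fragments in sperm WT replicate 4.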
